A study of Rattus norvegicus with 12 samples.

Results

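Genes that mark macrophages and the presentation of antigen were measured by array in anterior pituitary glands of congenic rats given diethylstilbestrol (DES), a synthetic estrogen under which the lactotrophs multiply: *Cd14*, *Cd68*, *Cd74*, *Ptprc*, *Tyrobp*, *Fcer1g*, *C1qa*, *C1qb*, *Csf1r* and *Aif1*. They were taken by gene symbol from the annotation of the array, which gave 12 probe sets for the 10 genes out of 31099 probe sets in all. *Ptprc* and *Aif1* had 2 probe sets each and the other genes had 1. All 12 lay above the filter on dim values, a mean signal of 65.2, which 18607 probe sets passed. The arrays held 3 replicates of each of 4 lines. Ept1 carried alleles of the Copenhagen (COP) strain at a locus on chromosome 6, Ept2 and Ept6 on chromosome 3 and Ept9 on chromosome 10, and outside these segments all lines were of the ACI strain. All animals were males that received, at 9 weeks of age, a silastic implant with 5 mg of DES, and were killed at 21 weeks, after 12 weeks of treatment and a BrdU injection. All 4 lines thus shared the hormone, and sham-treated or parental ACI glands were not analysed here, so that each line was compared with the mean of the other 3. The labels conflict on whether the 3 arrays of a line come from 3 independent samples or fewer, so that p-values may in part measure technical spread.

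In GRCr8, the RefSeq assembly, the genes lie as follows, none of them on chromosome 3 or 6: *Cd14* at chr18:28609558-28611409, *Cd68* at chr10:54880562-54882441, *Cd74* at chr18:56527071-56536406, *Ptprc* at chr13:52147717-52259810, *Tyrobp* at chr1:94800372-94804307, *Fcer1g* at chr13:86181908-86186766, *C1qa* at chr5:154417086-154419933, *C1qb* at chr5:154402276-154407827, *Csf1r* at chr18:56834152-56860804, *Aif1* at chr20:3651435-3657341.

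Macrophages are resident cells of the pituitary. They depend on the growth factor receptor Csf1r, take up debris into lysosomes that carry Cd68, secrete C1q, which opens the classical complement pathway, and pass receptor signals through the adaptors Tyrobp and Fcer1g. Cd74, the invariant chain, holds class II molecules of the major histocompatibility complex (MHC) until peptide is loaded, and in the rat these class II molecules are encoded by the RT1-B and RT1-D genes. Class II genes and *Cd74* are switched on together by the coactivator Ciita, which acts through conserved promoter elements named the X box and the Y box and responds to interferon-gamma.

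Over the 12 arrays these genes did not form 1 block. *Fcer1g*, *C1qa*, *C1qb*, *Tyrobp*, *Aif1*, *Ptprc*, *Cd14* and *Cd68* correlated with each other at a median r of 0.73, which was 0.52 without Ept2 replicate 1, the lowest array in most of them, and 0.35 without the 2 arrays farthest from the median. *Cd74* followed class II genes more closely, with *RT1-Bb* in the same rank order on every array. *Csf1r* had a median r of 0.01 with the 8 genes and an r of 0.46 with *Cd74*. No gene passed the test for a difference between lines. The lowest adjusted p among the comparisons of 1 line with the other 3 was that of *Cd14*, whose signal in Ept2 lay under that of every other array.

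The promoters of the class II genes that *Cd74* followed most closely and of the C1q genes are shown because these are the groups that moved together. Each line gives the 150 bases before the RefSeq start of the gene, 5' to 3' on the strand of the gene, in the GRCr8 assembly: chr20:4576907-4577056 (plus strand) for *RT1-Ba*, chr20:4604119-4604268 (minus) for *RT1-Bb*, chr20:4515265-4515414 (plus) for *RT1-Da* and chr20:4560163-4560312 (minus) for *RT1-Db1*. Capitals mark the Y box letters CTGATTGG and the X box core AACNGATG, searched on both strands.
RT1-Ba: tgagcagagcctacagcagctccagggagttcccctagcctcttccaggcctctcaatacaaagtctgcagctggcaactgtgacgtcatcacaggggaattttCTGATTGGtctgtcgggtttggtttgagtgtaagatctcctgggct
RT1-Bb: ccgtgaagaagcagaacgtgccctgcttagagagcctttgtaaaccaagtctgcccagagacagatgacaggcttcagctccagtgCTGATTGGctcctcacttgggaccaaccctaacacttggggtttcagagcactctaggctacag
RT1-Da: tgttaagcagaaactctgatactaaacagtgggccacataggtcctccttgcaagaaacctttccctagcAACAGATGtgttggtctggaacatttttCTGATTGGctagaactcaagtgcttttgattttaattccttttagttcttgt
RT1-Db1: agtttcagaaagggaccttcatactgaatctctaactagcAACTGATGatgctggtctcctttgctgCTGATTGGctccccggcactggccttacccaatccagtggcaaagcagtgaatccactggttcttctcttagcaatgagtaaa
The Y box letters stood in all 4 promoters, with their first base 46 bases before the start in *RT1-Ba*, 64 in *RT1-Bb*, 52 in *RT1-Da* and 83 in *RT1-Db1*. The X box core stood before it in *RT1-Da*, at 80 bases, and in *RT1-Db1*, at 110 bases. Of the 10 listed class II RT1 genes, 9 had a promoter in the table. In the 250 bases before the start, 7 of these 9 held the Y box letters and 4 the X box core, against 3.19% and 2.17% of all 33469 promoters. The same window of *Cd74* held neither, which says only that these letters are not there. Of the 7 members with a promoter, 1 held the Y box letters, *Cd68*, on the opposite strand at 144 bases, and 0 held the X box core.

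The complement promoters are those of *C1qa*, chr5:154419934-154420083, and of *C1qb*, chr5:154407828-154407977, both on the minus strand. Capitals mark GAGGAA or its reverse complement, a form of the core bound by PU.1, the transcription factor of the macrophage lineage. Other forms of the core were not searched.
C1qa: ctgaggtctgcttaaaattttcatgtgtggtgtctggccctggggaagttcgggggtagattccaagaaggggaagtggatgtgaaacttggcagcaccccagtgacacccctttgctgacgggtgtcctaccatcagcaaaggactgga
C1qb: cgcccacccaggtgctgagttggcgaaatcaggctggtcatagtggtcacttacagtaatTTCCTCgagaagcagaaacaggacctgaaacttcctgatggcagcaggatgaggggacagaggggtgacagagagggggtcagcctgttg
It stood 90 bases before the start of *C1qb*, and again at 247 bases, beyond the stretch shown. *C1qa* did not hold it, which says only that these letters are not there. Promoters were found for 7 of the 10 genes, and 6 of these 7 held GAGGAA within 250 bases of the start, namely *C1qb*, *Cd68*, *Ptprc*, *Cd14*, *Cd74* and *Csf1r*. It is a common word, present in 23.3% of all promoters, and a match is not a site of binding.

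*Cd14*, the co-receptor through which macrophages sense bacterial lipopolysaccharide, gave a signal of 650.7, 645.0 and 597.3 on the Ept1 arrays, 312.5, 454.1 and 502.5 on the Ept2 arrays, 841.3, 578.5 and 790.1 on the Ept6 arrays, and 792.7, 550.0 and 889.6 on the Ept9 arrays. All 3 Ept2 arrays lay below the 9 others, while the other 3 lines overlapped. Of all probe sets, 1.68% lay in Ept2 entirely below the other lines. The mean was 423 ± 98.7 (SD, n = 3) in Ept2, while Ept1 had 631 ± 29.3, Ept6 had 737 ± 139 and Ept9 had 744 ± 175 (SD, n = 3 each). On the log2(signal + 16) scale Ept2 was lower than the mean of the other lines by a difference of -0.72 ± 0.17 (SE, 95% interval -1.10 to -0.34), or 1.65-fold. The exact permutation test over the 220 choices of 3 arrays gave p = 0.00455, the smallest it can give, but limma's p adjusted over all probe sets was 0.104 and *Cd14* was not called. It was called by limma with the filter at the 60th percentile (adjusted p = 0.0485) and with a trend in the variance model (adjusted p = 0.0216).

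*Csf1r*, the receptor for the macrophage growth factors Csf1 and Il34, read 940.8, 797.7 and 971.3 in Ept1, 793.3, 596.4 and 814.3 in Ept2, 627.2, 694.8 and 902.8 in Ept6, and 687.4, 637.7 and 724.6 in Ept9. It was highest in Ept1, with a mean of 903 ± 92.7 (SD, n = 3), though Ept2 and Ept6 arrays reached into the range of Ept1. The difference of Ept1 from the other lines was 0.33 ± 0.13 on the log2 scale (SE, 95% interval 0.05 to 0.61, exact permutation p = 0.0182, limma adjusted p = 0.569). The other 3 means, 735 ± 120 in Ept2, 742 ± 144 in Ept6 and 683 ± 43.6 in Ept9 (SD, n = 3 each), did not differ beyond their spread.

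The adaptors carry signals for receptors that have no signalling tail of their own. *Fcer1g*, the Fc receptor gamma chain, read 3904, 3438 and 3563 in Ept1, 2326, 3583 and 3243 in Ept2, 3574, 2926 and 3832 in Ept6, and 4149, 3380 and 3861 in Ept9. The 2326 of Ept2 replicate 1 stood apart below all others, and the remaining arrays of the 4 lines overlapped. The Ept2 difference was -0.26 ± 0.13 (SE, log2 scale, limma adjusted p = 0.401). *Tyrobp* (DAP12), the partner of Trem2, ran from 310.4 on Ept2 replicate 1 to 563.9 on Ept2 replicate 2, so that 1 line held both the lowest and the highest array. Its 4 means lay between 432 and 473, and its F test gave the highest p of the 12 probe sets (limma adjusted p = 0.947).

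*Ptprc* (CD45), a tyrosine phosphatase on the surface of all leukocytes, was read by 2 probe sets. The brighter gave 372.2, 493.9 and 444.1 in Ept1, 272.7, 372.4 and 353.8 in Ept2, 357.9, 293.0 and 489.8 in Ept6, and 520.9, 432.1 and 400.9 in Ept9. Ept2 had the lowest mean, 333 ± 53.0 (SD, n = 3), and overlapped Ept1 and Ept6 but not Ept9, where the mean was 451 ± 62.3 (SD, n = 3). Here Ept2 minus Ept9 was -0.42 on the log2 scale (limma adjusted p = 0.4115). The dimmer probe set, between 56.9 and 149.1, was also lowest in Ept2 by its mean, 82.6 ± 21.8 (SD, n = 3), but its lowest array was Ept9 replicate 2. Their differences of Ept2 from the other lines were -0.32 and -0.44 on the log2 scale (limma adjusted p = 0.378 and 0.413).

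*C1qa* and *C1qb* encode chains of the C1q complex. *C1qa* read 5332, 4970 and 5018 in Ept1, 3466, 5054 and 4561 in Ept2, 4445, 4512 and 4901 in Ept6, and 6056, 4656 and 5364 in Ept9. *C1qb* read 3060, 2630 and 2972 in Ept1, 1772, 2699 and 2420 in Ept2, 2789, 2359 and 3125 in Ept6, and 2994, 2453 and 2651 in Ept9. In both genes Ept2 replicate 1 was far the lowest array. The other arrays of the 4 lines overlapped in *C1qb*, while in *C1qa* every Ept6 array lay below every Ept1 array. For *C1qa*, Ept1 minus Ept6 was 0.14 on the log2 scale (limma adjusted p = 0.963). The Ept2 differences were -0.22 ± 0.11 for *C1qa* and -0.29 ± 0.13 for *C1qb* (SE, log2 scale, limma adjusted p = 0.426 and 0.347).

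*Cd68*, a glycoprotein of the macrophage lysosome, is the only member that lies on chromosome 10, the chromosome of the Ept9 segment; whether it lies within the segment was not analysed here. It read 445.8, 518.4 and 486.7 in Ept1, 341.5, 492.7 and 468.7 in Ept2, 607.4, 483.7 and 581.8 in Ept6, and 848.2, 567.7 and 678.5 in Ept9. Ept9 held the highest arrays, with a mean of 698 ± 141 (SD, n = 3), and overlapped Ept6 alone. The difference of Ept9 from the other lines was 0.49 ± 0.14 on the log2 scale (SE, 95% interval 0.18 to 0.79, exact permutation p = 0.0136, limma adjusted p = 0.198). Ept2 was lower than the others by a difference of -0.40 (limma adjusted p = 0.226), and Ept2 minus Ept9 was -0.66 (limma adjusted p = 0.127).

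*Aif1* (Iba1), a calcium-binding protein of the macrophage cytoskeleton, gave different accounts in its 2 probe sets. The brighter read 910.3, 974.5 and 1049 in Ept1, 554.1, 1095 and 1129 in Ept2, 833.8, 958.5 and 1120 in Ept6, and 1309, 997.0 and 1119 in Ept9. Ept2 replicate 1 was the lowest array, the other 2 Ept2 arrays lay above all of Ept1, and over all arrays the lines overlapped (limma F test, adjusted p = 0.783). The dimmer read 39.9, 33.3 and 98.2 in Ept1 and from 93.3 to 137.3 on the 9 other arrays, so that 2 Ept1 arrays stood far below all others and the third did not. Ept1 differed from the other lines by -0.88 on the log2 scale (limma adjusted p = 0.237). Without Ept1 replicate 3 this became -1.25 and was called (limma adjusted p = 0.00229), and Ept2 was then called too, at 0.58 (limma adjusted p = 0.0267). The brighter probe set, with an Ept1 difference of -0.02, did not share this pattern.

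*Cd74*, the invariant chain, read 4774, 5617 and 4378 in Ept1, 2615, 4298 and 5465 in Ept2, 3473, 2882 and 5046 in Ept6, and 2750, 3289 and 2328 in Ept9. Its mean was, from highest to lowest, that of Ept1 (4923 ± 633), Ept2 (4126 ± 1433), Ept6 (3800 ± 1118) and Ept9 (2789 ± 481; SD, n = 3 each). Every Ept1 array lay above every Ept9 array, while Ept2 and Ept6 spanned most of the range. The share of all probe sets separated in this way between a pair of lines was not counted. Ept1 minus Ept9 was 0.82 ± 0.27 on the log2 scale (SE, limma adjusted p = 0.319), and no neighbours in this order differed beyond their spread.

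**Figure D1:**
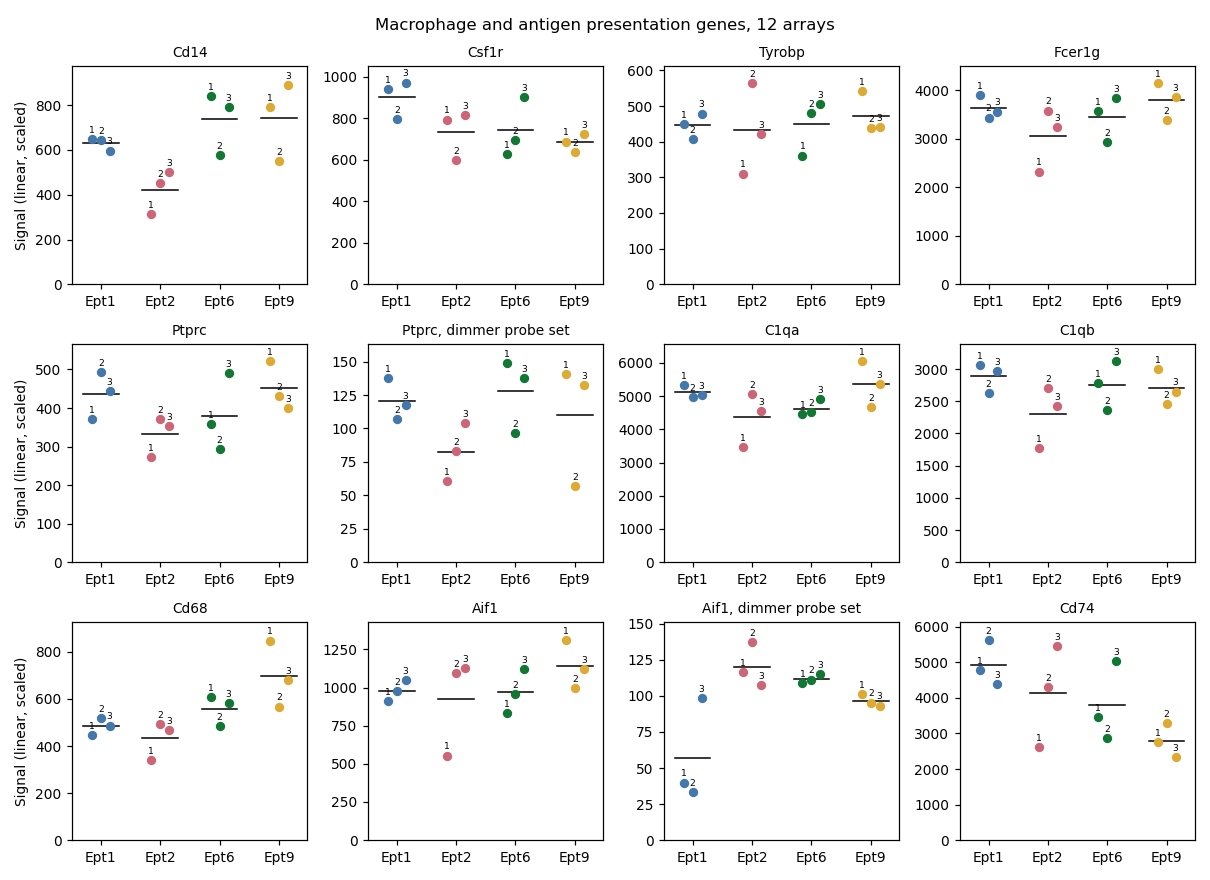
Linear array signal (vertical axis, from 0, a separate scale in each panel) of the 12 probe sets in Ept1, Ept2, Ept6 and Ept9. Each point is 1 array with its replicate number, and the black line is the mean of 3. Ept2 replicate 1 is the lowest array in most panels, *Cd14* is below all other arrays in Ept2, and *Cd74* is lowest in Ept9.

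Among the 4 lines, 0 of the 12 probe sets were called by the limma F test at an adjusted p under 0.05, where 0.994% of all 18607 probe sets were. At an unadjusted p under 0.05 it was 3 of 12 (*Cd14*, *Cd68* and the dimmer probe set of *Aif1*), against 14.1% of all. In each line against the other 3, 0 were called. Of all probe sets 0.043% were higher and 0.15% lower in Ept1, 0.339% and 0.462% in Ept2, 0.124% and 0.0376% in Ept6, and 0.43% and 0.253% in Ept9. At an unadjusted p under 0.05, *Cd14*, *Cd68* and *C1qb*, 3 of the 12, were lower in Ept2 (7.21% of all), and the dimmer *Aif1* probe set, 1 of 12, was higher (7.17%). At the same threshold *Cd74* and *Csf1r*, 2 of 12, were higher in Ept1 (3.54%) and the dimmer *Aif1* probe set was lower (3.95%). In Ept9 *Cd68*, 1 of 12, was higher (4.35%) and *Cd74* lower (6.67%), and in Ept6 0 of 12 passed in either direction (5.3% and 5.35%). In the 6 comparisons of a pair of lines 0 were called as well (1.46% of all in at least 1 pair), and 6 of 12 had an unadjusted p under 0.05 in at least 1 pair (33.1% of all). The lowest adjusted p of a pair of lines was 0.124, for *Cd14* in Ept2 against Ept6 (limma). By the sign of the difference alone, 10 of 12 probe sets were lower in Ept2 (48.2% of all) and 9 of 12 were higher in Ept9 (46.2% of all). The median difference of the 10 genes, each by its brighter probe set, was -0.24 in Ept2 and 0.19 in Ept9, against 0.01 and -0.01 over all probe sets tested. In such bulk samples fewer cells of a type and less RNA per cell cannot be told apart.

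**Figure D2:**
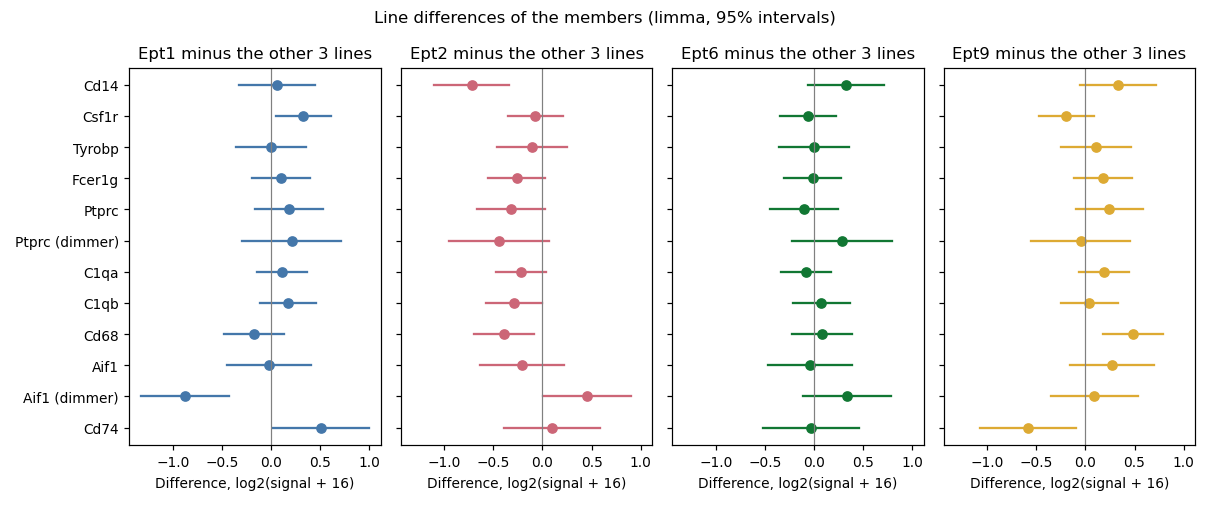
Difference of each line from the mean of the other 3 on the log2(signal + 16) scale (horizontal axis) for the 12 probe sets (vertical axis), 1 panel per line. Points are limma estimates and bars their 95% intervals. In Ept2 the points lie left of 0 except those of *Cd74* and the dimmer *Aif1* probe set.

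The lower values in Ept2 rest in large part on 1 array. Ept2 replicate 1 was the lowest of the 12 arrays in 8 of the 10 genes, where 11.8% of all probe sets were lowest on it; *Csf1r* was lowest on Ept2 replicate 2 and *Cd74* on Ept9 replicate 3. The mean of the 10 standardized values was -1.91 on this array, and between -0.53 and 0.90 on the 11 others. Without it the median Ept2 difference of the 10 genes went from -0.24 to -0.10, and 8 of the 12 probe sets were lower in Ept2. *Fcer1g* was then at -0.08, *C1qa* at -0.06 and *C1qb* at -0.12, while *Tyrobp* (0.10) and the brighter probe set of *Aif1* (0.12) turned positive. *Cd14* kept -0.52 ± 0.18 (SE, log2 scale, limma adjusted p = 0.253) and *Cd68* -0.24 (limma adjusted p = 0.481). The correlation of Ept2 replicate 1 with the other arrays over all probe sets ran from 0.959 to 0.966. The range of the series, 0.959 to 0.970, starts at 0.9587, the lowest value of this array and of Ept2 replicate 2. For Ept6 replicate 1 the lowest value was 0.9588. The highest value of Ept2 replicate 2, 0.9627, was below the 0.9664 of replicate 1 and below that of every other array. The 3' minus 5' difference of the Gapdh control probe sets is a sign of RNA quality. It was 0.40 on Ept2 replicate 1 and 0.38 ± 0.06 (SD, n = 3) in Ept2, against 0.09 to 0.28 on the arrays of the other lines. On Ept2 replicate 3 it was 0.42, higher than on replicate 1, while the mean of the standardized values there was -0.11. Over the 3 Ept2 arrays, 6 of 7 tested hormone cell genes had a positive difference (median 0.25), where 51.8% of all probe sets did. All 6 tested folliculostellate and stem cell genes did too (median 0.41), among them *S100b* at 0.54 (limma adjusted p = 0.0955). The hormone gene *Tshb* read 18692 on Ept2 replicate 1, 7187 on replicate 2 and 9820 on replicate 3. Differences of these lists without Ept2 replicate 1 are not given here. The part of RNA quality and of these cell types in the lower macrophage signals was not tested.

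The correlations between the genes were computed over the 12 arrays for all 45 pairs. Of these, 40 were positive and 26 exceeded 0.5, with a median Pearson r of 0.60. The closest were *Fcer1g* with *C1qb* (r = 0.936, permutation p = 6e-05, rho = 0.860, permutation p = 0.00057) and *Fcer1g* with *C1qa* (r = 0.924, permutation p = 4e-05, rho = 0.832, permutation p = 0.00133). Adjusted over the 45 pairs, p was 0.00135 for r in both, and 0.0257 and 0.0299 for rho. Without the 2 arrays farthest from the median of *Fcer1g* these correlations were 0.765 and 0.827, and with the line means removed 0.979 and 0.901. Every pair within the C1q and *Fcer1g* group thus kept its sign, and *C1qa* with *C1qb* went from r = 0.834 to 0.530 without the 2 arrays farthest from the median of *C1qa*.

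Taking out *Cd74* and *Csf1r*, a choice made after the values were seen, the other 8 genes gave 28 pairs with r from 0.34 to 0.94 and a median of 0.73. With the line means removed the median was 0.74, and 0.56 when Ept2 replicate 1 was also left out, a setting chosen after seeing the data. Without the 2 arrays farthest from the median of the first gene of each pair it was 0.35. Without Ept2 replicate 1 it was 0.52, with a range from -0.27 to 0.82, and over all 45 pairs the median went from 0.60 to 0.29. *Cd14* with *Tyrobp* turned from 0.34 to -0.27. The block thus rested in part on that array. Among others, *Cd14* with *Cd68* (0.82 and 0.69), *Tyrobp* with *Aif1* (0.84 and 0.68) and *C1qa* with *Aif1* (0.86 and 0.62) stayed above 0.6 with and without it, though *C1qa* with *Aif1* was 0.31 without the 2 arrays farthest from the median of *C1qa*.

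*Csf1r* did not follow these 8 genes. Its correlations with the 8 genes ran from -0.35, with *Cd68*, to 0.22, with *C1qb*, at a median of 0.01, and with the line means removed the median was 0.00, or 0.26 when Ept2 replicate 1 was also left out. With *Cd74* it had r = 0.46, which was 0.53 without Ept2 replicate 1, 0.60 without the 2 arrays farthest from the median of *Cd74*, and 0.08 with the line means removed. Of the 34 genes of macrophage identity 7 exceeded 0.5 with *Csf1r* (20.6%, against 5.39% of all probe sets), led by *P2ry12* (0.81), a purine receptor of microglia, and of 35 intracellular and lysosomal genes 6 did (17.1%), among them the protease *Ctss* (0.78). Of the 13 class II genes 2 did, *RT1-DMb* (0.68) and *RT1-DMa* (0.57). Over all genes, the most like *Csf1r* were *Vgf* (r = 0.890), which encodes a neuroendocrine secretory peptide, *Bbs7* (r = 0.886) and *Plpp6* (r = 0.872).

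*Cd74* exceeded 0.5 with 0 of the 9 other genes, with a median of 0.20 over the 8. With the line means removed the median was 0.54 (0.41 to 0.76), but 0.14 (-0.12 to 0.70) when Ept2 replicate 1 was also left out, where *Ptprc* alone stayed above 0.5 and *Fcer1g* went from 0.61 to 0.20. Without that array, and with the line means kept, the median was -0.14. *Cd74*, lowest in Ept9, and *Cd68*, highest there, gave r = -0.25 over all arrays, 0.47 with the line means removed and 0.09 when Ept2 replicate 1 was also left out.

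The genes most like *Cd74* over the 12 arrays, of all those tested, were *RT1-Bb* (r = 0.993), *RT1-Da* (0.970), *RT1-Db1* (0.957), the scavenger receptor and chemokine *Cxcl16* (0.953), *RT1-CE5* (0.924) and *RT1-Ba* (0.909). *RT1-Bb*, the beta chain of the RT1-B molecule, read 1638, 2147 and 1616 in Ept1, 849.3, 1594 and 2040 in Ept2, 1236, 1021 and 1764 in Ept6, and 927.8, 1198 and 701.5 in Ept9. Its 12 arrays stood in exactly the order of *Cd74* (rho = 1.0), and the correlation was 0.986 with the line means removed and 0.993 without the 2 arrays farthest from the median of *Cd74*. Leaving out each array in turn, r was at least 0.991 for *RT1-Bb*, 0.960 for *RT1-Da*, 0.943 for *RT1-Db1* and 0.894 for *RT1-Ba*. Ept2 replicate 1 was low in these genes, but so were Ept9 replicate 3 and Ept6 replicate 2. Some RT1 genes are close copies of each other, so that a probe set may read more than 1 of them, which was not tested here. *RT1-CE5*, a class I gene, had another, brighter probe set with r = 0.43.

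**Figure D3:**
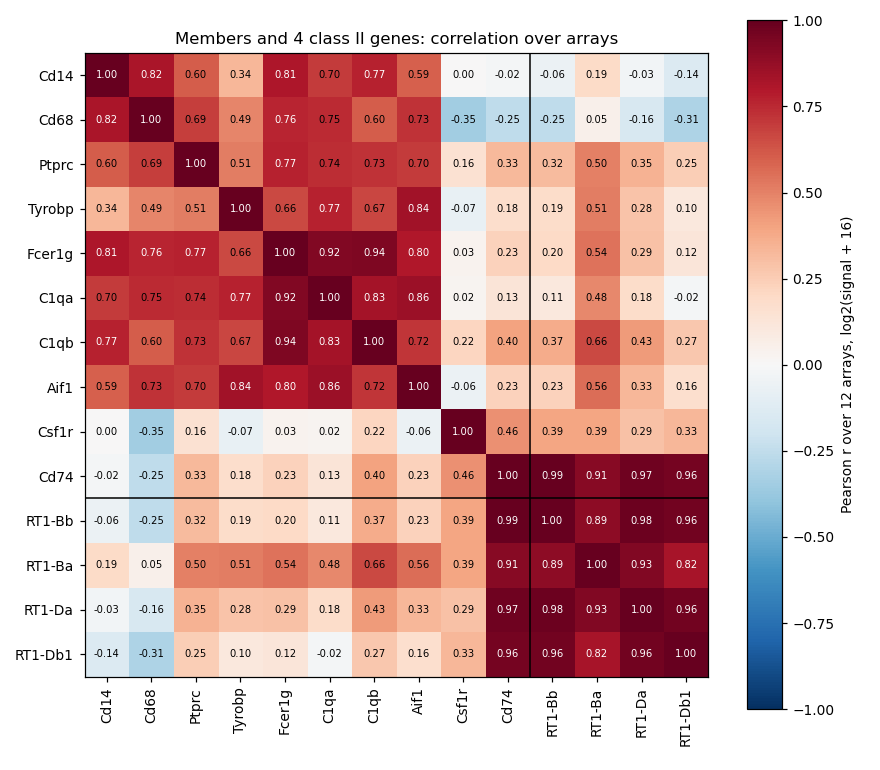
Pearson r over the 12 arrays of log2(signal + 16) between the 10 genes (brighter probe set each) and 4 class II genes (both axes); colour runs from -1 (blue) to 1 (red) and the black lines part members from class II genes. Over these 12 arrays the 8 genes at the upper left form 1 block and *Csf1r* stands apart from them. The block rests in part on Ept2 replicate 1, with a median r of 0.73 and of 0.52 without that array. *Cd74* joins the class II genes, with r from 0.91 to 0.99.

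Among the 13 tested genes of class II presentation, 7 had an r above 0.5 with *Cd74* (53.8%, against 6.51% of all probe sets), and 3 with *Fcer1g* (23.1%, against 7.88%). The 7 were *RT1-Bb*, *RT1-Da*, *RT1-Db1*, *RT1-Ba*, *RT1-DMb* (0.805), *RT1-DMa* (0.593) and *Ciita* itself (0.763). *Rfx5* and *Rfxap*, which encode subunits of the factor that binds the X box, had negative values (-0.54 and -0.42). The lysosomal protease *Lgmn* stood at -0.09 with *Cd74* and at 0.81 with *Fcer1g*. Of 34 genes of macrophage identity, 4 exceeded 0.5 with *Cd74* (11.8%) and 15 with *Fcer1g* (44.1%). These shares were counted with the line means kept, and were not counted with them removed. Removing the line means raised r with *Fcer1g* from 0.20 to 0.56 for *RT1-Bb* and from 0.29 to 0.67 for *RT1-Da*. For *RT1-Db1* it rose from 0.12 to 0.45 and for *RT1-Ba* from 0.54 to 0.83. The split between the groups thus depends in part on the line means. All values in a set come from the same 12 arrays, and whether these shares differ between *Cd74* and *Fcer1g* was not tested.

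**Figure D4:**
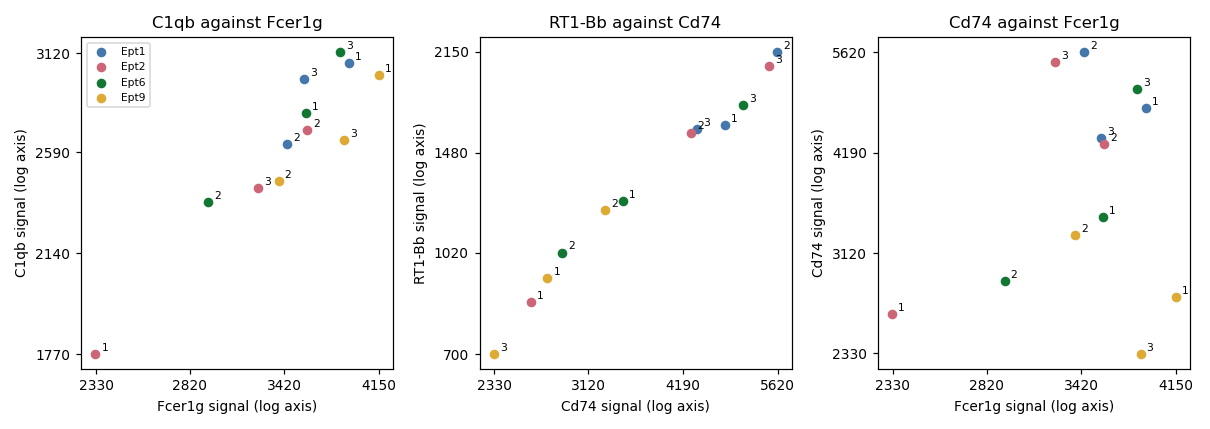
Signals of *C1qb* against *Fcer1g* (left), *RT1-Bb* against *Cd74* (centre) and *Cd74* against *Fcer1g* (right), on log axes; each point is 1 array, coloured by line with its replicate number. The first pair (r = 0.936) holds Ept2 replicate 1 at its lower end, the second (r = 0.993) follows a line over all 12 arrays, and the third (r = 0.23) does not.

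By line, the 4 class II genes most like *Cd74* were ordered as it was. The means of *RT1-Bb* were 1801 ± 300 in Ept1, 1494 ± 602 in Ept2, 1340 ± 382 in Ept6 and 942 ± 248 in Ept9 (SD, n = 3 each), and *RT1-Da*, *RT1-Db1* and *RT1-Ba* had the same order. *RT1-DMb* was lowest in Ept6 instead, and *RT1-DMa* and *Ciita* were higher in Ept6 than in Ept2 by the mean. The Ept9 differences of the 4 genes lay between -0.68 and -0.41 on the log2 scale, and 0 of the 13 genes of the list were called in any line or among the lines (limma), with 1 at an unadjusted p under 0.05 in the F test. The median difference of the list was 0.22 in Ept1 and -0.15 in Ept9, against 0.01 and -0.01 over all probe sets. *Ciita* was dim, between 46.9 and 101.2, and highest on Ept2 replicate 3.

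The genes most like the mean of the 10 members were *Gask1b* (r = 0.934), *Ly86* (0.921), which encodes the partner of the Toll-like receptor homologue Cd180, *C1qc* (0.918), the remaining chain of C1q, *LOC100912188* (0.917) and *Vsir* (0.904), a checkpoint protein of myeloid cells. *Bnip2*, *Lcp1*, *Clic2*, *Polr3e* and *Rac2* followed, down to 0.874. The least alike were *Mtdh* (-0.895), *Vps51* (-0.894), *Gprasp2* (-0.893), *Cited4* (-0.884) and *Kdsr* (-0.876). *C1qc* read 1390 on Ept2 replicate 1 and between 2257 and 3157 on the 11 other arrays.

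Other genes listed for the macrophage were called in a line against the other 3, though which cells expressed them was not tested. Of the 34 tested genes of macrophage identity and receptors, 2 were lower in Ept2 and 2 higher in Ept9 by limma, where 0.462% and 0.43% of all probe sets were called in these directions. The lists were chosen with earlier results of these data known, so that these counts are no test of the list against all probe sets. *Ly96* (MD-2), which joins Cd14 in sensing lipopolysaccharide, read 560.3, 466.3 and 548.8 in Ept9 and from 294.1 to 375.8 on the 9 other arrays, with no overlap, as 1.3% of all probe sets did in this direction (difference 0.67 ± 0.09 SE, log2 scale, limma adjusted p = 0.0143). *Mertk*, a receptor for the uptake of apoptotic cells, read 321.0, 389.2 and 325.0 in Ept2 and from 430.7 to 687.7 elsewhere (difference -0.62 ± 0.09 SE, limma adjusted p = 0.0142). *Mertk* lies on chromosome 3, which carries the COP segment of both Ept2, where it was lowest, and Ept6, where it was highest (635 ± 46.4, SD, n = 3). *Gpnmb*, a glycoprotein of lysosome-rich macrophages, was lower in Ept2 (1322 ± 393, difference -0.99, limma adjusted p = 0.0461) and higher in Ept9 (3753 ± 848, difference 1.03, limma adjusted p = 0.0423; SD, n = 3 each).

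The heme oxygenase *Hmox1* and the iron exporter *Slc40a1* were likewise higher in Ept9, by 2.52 and 1.49 on the log2 scale (limma adjusted p = 0.00989 and 0.0239). *Hmox1* was lower in Ept2 than the mean of the other lines (-2.09, limma adjusted p = 0.0217), but Ept2 overlapped Ept1. It read 130.4, 324.7 and 283.7 in Ept2 and 740.3, 345.1 and 254.3 in Ept1, with means of 1014 in Ept6 and 2762 in Ept9. *Pf4*, a chemokine of platelets that macrophages also express, read 1543, 1114 and 1637 in Ept9 and from 533.7 to 892.1 elsewhere (difference 1.08, limma adjusted p = 0.00899). The chemokine *Ccl6* (difference 1.23, limma adjusted p = 0.0471), the complement protease *Cfd* (1.15, limma adjusted p = 0.0475) and *Ifitm1* (0.59, limma adjusted p = 0.0446) were higher in Ept9 as well, and *C1qbp*, a mitochondrial protein that can bind C1q, was lower (-0.33, limma adjusted p = 0.0423). *Ccl6* and *C1qbp* lie on chromosome 10. Of the 12 tested growth factor and chemokine genes, 11 had a positive difference in Ept9 and 2 in Ept2, where 46.2% and 51.8% of all probe sets did. Only 1 of the 12, *Ccl6*, was called, and this list too was chosen with earlier results known.

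These calls depend on single arrays to different degrees. In each of the 13 calls the sign held under all 10 alternatives of the processing and with each of the 12 arrays left out. *Pf4* and *Hmox1* in Ept9 were called under all 10 alternatives, and *Ly96* under 9, lost with no filter. *Mertk* and *Mzb1* were called under 8, *Hmox1* in Ept2 and *Slc40a1* in Ept9 under 7, *C1qbp* under 6, and *Gpnmb* in either line, *Ccl6*, *Cfd* and *Ifitm1* under 5. *Pf4*, *Hmox1* and *Ly96* in Ept9 were lost without Ept9 replicate 1 or 3, and *Mertk* and *Hmox1* in Ept2 without Ept2 replicate 1 or 3. *Slc40a1* was lost without Ept1 replicate 3, Ept9 replicate 1 or Ept9 replicate 3. *Gpnmb*, *Ccl6* and *Cfd* were lost in 9 to 11 of the 12 cases with 1 array left out, and *Ifitm1* and *C1qbp* in all 12. With the Gapdh difference in the limma model 0 of all probe sets were called in Ept2, and 1604 had an unadjusted p under 0.05.

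**Figure D5:**
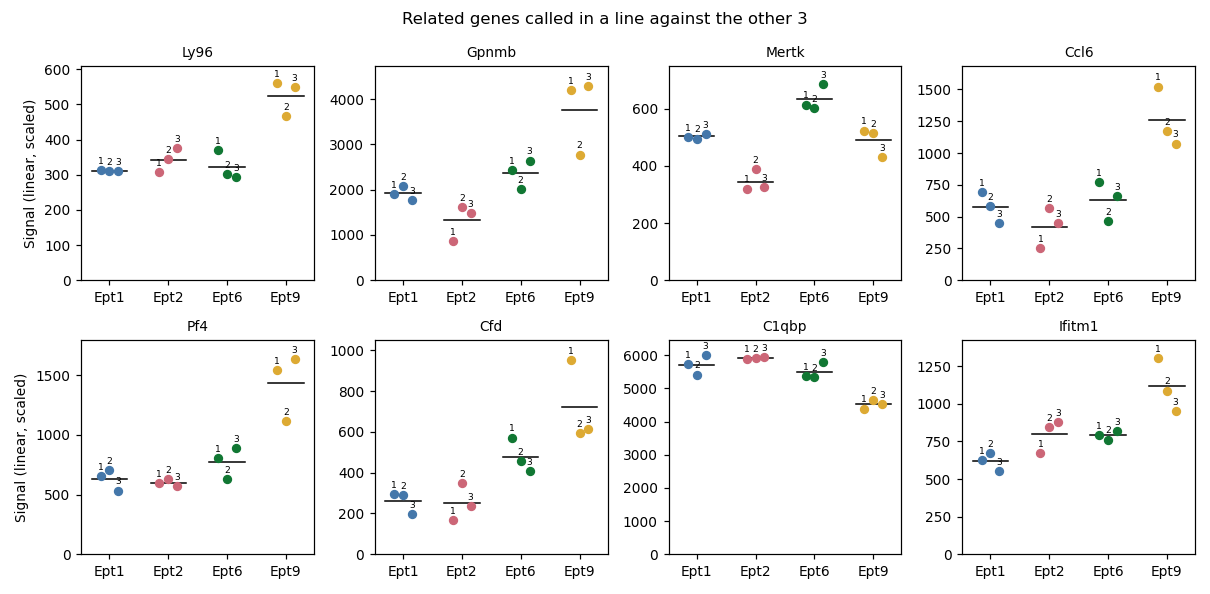
Linear array signal (vertical axis, from 0, a separate scale in each panel) of 8 genes from the lists that were called in a line against the other 3. Points are arrays with their replicate numbers and black lines are means of 3. *Ly96*, *Ccl6*, *Pf4*, *Cfd* and *Ifitm1* are highest and *C1qbp* lowest in Ept9, and *Mertk* and *Gpnmb* are lowest in Ept2.

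Few genes of other leukocytes rose above the filter. In the lists of other leukocytes, of the T and NK cell genes on the array 3 of 17 were tested, of the B and plasma cell genes 3 of 6, and of the granulocyte and mast cell genes 2 of 13. Of these, *Mzb1*, a chaperone of the endoplasmic reticulum known from plasma cells, was lower in Ept1 (1050 ± 70.5 against 1512 ± 298, 2367 ± 476 and 2187 ± 244 in Ept2, Ept6 and Ept9, SD, n = 3 each; difference -0.90, limma adjusted p = 0.0383). That call was lost with no filter, with the Gapdh difference in the model, and without 10 of the 12 arrays, among them every Ept1 array. *Prl*, the hormone gene of the lactotroph, read from 41979 to 51767 on all arrays, and 0 of 4 genes of the posterior lobe passed the filter. Hemoglobin *Hbb*, a sign of blood, read from 13300 in Ept6 to 22280 in Ept9 by the mean, and its part in the Ept9 differences was not tested.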

How the data were processed

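RNA of 12 anterior pituitary samples from DES-treated male rats, 3 arrays for each of 4 congenic lines grouped by title, was measured on Affymetrix rat arrays. The deposited values are linear signal intensities of 31099 probe sets, as deposited already on a common scale, since the mean after trimming 2% at each end was 500.18 or 500.19 on every array. For the software and background correction behind them, the sources used here name nothing. In the platform annotation 20832 probe sets have 1 gene symbol, 436 several and 9831 none.

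After 57 control probe sets and 12435 below the 40th percentile of mean signal (65.2) were left out, 18607 were tested as log2(signal + 16) with limma (version 3.58.1, run under R 4.3.3). The tests were the F test with moderated variances over the lines, each line against the mean of the other 3, and the 6 pairs. A change in 1 line therefore moves the contrasts of the others. P-values were adjusted by Benjamini-Hochberg over all probe sets tested, with a threshold of 0.05. Correlations used the brightest probe set of each gene; their p-values are two-sided permutation p-values, as are the exact tests of single genes. The steps were tested on simulated data. Promoters came from RefSeq tables of GRCr8 and were searched with Python 3.11.15.

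Named are all members, genes of the 17 lists (310 genes) called in a test, and the 10 genes most and 5 least like the members' mean. The genes most like *Cd74*, *Csf1r* and *Fcer1g*, the class II genes and other list genes given with values were added after their values were seen. Members and lists were chosen with earlier results of these data known, and the counts of 1 list are not reported here. Alternatives were the pseudocount, normalization, filter, replicate block, variance trend, array weights, the Gapdh difference as a covariate and each array left out. The number of arrays limits the precision.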

Additional observations from a re-analysis of the deposited data

How the results depend on the processing

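The members stayed uncalled with limma under most alternatives. Called were 1 member in Ept2 (*Cd14*) with the filter at the 60th percentile and 1 with the variance trend, which also called 3 pairs of lines. Counting non-overlapping groups, an alternative chosen after seeing the data, gave 1 (*Cd14*). With each array left out, 0 to 1 members were called by the F test, in Ept1 and in Ept2, and 0 to 3 in pairs of lines, all without Ept1 replicate 3 at their highest. The median r of the 45 pairs, 0.60, was 0.2928 without the 2 farthest arrays, 0.3847 with the line means removed and Ept2 replicate 1 left out (chosen after seeing the data) and 0.2855 to 0.7033 with 1 array left out, lowest without Ept2 replicate 1.

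Counts over the whole table moved more. The F test called 185 probe sets, but 53 when dim probe sets stayed in and 282 under the 60th percentile filter. A variance trend gave 419, the Gapdh covariate 37, and leaving out 1 array 73 to 142. Ept1 had 36, but 18 unfiltered, 73 under the trend and 12 to 33 leaving out 1 array. Ept2 had 149, but 32 unfiltered, 225 (60th percentile), 340 under the trend, 98 (array weights), 0 (Gapdh covariate, limma, with 1604 at an unadjusted p under 0.05) and 27 to 107 leaving out 1 array. Ept6 had 30, but 16 at a pseudocount of 1, 9 unfiltered, 58 at the 60th percentile, 105 under the trend, 7 given the Gapdh covariate and 11 to 30 leaving out 1 array. Ept9 had 127, but 29 unfiltered, 217 under the trend, 64 given the covariate and 28 to 98 leaving out 1 array. Of the list genes 7 were called by the F test, but 1 unfiltered, 12 at the 60th percentile, 16 under the trend, 0 given the Gapdh covariate (limma, 34 at an unadjusted p under 0.05) and 1 to 7 with 1 array left out. The cause was not tested.

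Over all tested probe sets, the deviations of same-numbered arrays of different lines correlated at -0.137 to 0.0787 over 18 pairs (median 0.016). For arrays with different numbers it was -0.103 to 0.110 over 36 pairs (median -0.013). Deviations shared in only a part of the probe sets were not tested. The replicate block called 84 probe sets by the F test, 16 in Ept1, 50 in Ept2, 14 in Ept6 and 40 in Ept9, 2 list genes and 0 members (4 at an unadjusted p under 0.05).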
